A study of Mus musculus with 14 samples.

Results

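The miR-30 family is a group of microRNAs (miRNAs), short RNAs that lower the output of the messenger RNAs they pair with. Its 8 listed members were mmu-miR-30a-5p, mmu-miR-30b-5p, mmu-miR-30c-5p, mmu-miR-30d-5p, mmu-miR-30e-5p, mmu-miR-30a-3p, mmu-miR-30c-1-3p and mmu-miR-30e-3p, all present among the 1247 miRNAs of the array. They were selected by name, and the family was chosen on a rise of miR-30a-5p after 8 Gy in bone marrow seen in these same arrays. Every value of the 8 minus 0 Gy difference in bone marrow is therefore given as a description, without a test. The prefix mmu- (mouse) is left out below.

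The levels came from 14 single-colour Agilent mouse miRNA arrays, 10 of bone marrow and 4 of hypothalamus, from male C57BL/6 mice aged 6 to 8 weeks, 12 h after gamma irradiation with 8 Gy or after 0 Gy. Before that, bone marrow mice had received nilestriol (a long-acting oestrogen, 150 mg/kg into the stomach, i.g., 48 h before), CBLB502 (an engineered flagellin that stimulates the innate receptor TLR5, 0.2 mg/kg into the abdomen, i.p., 0.5 h before), amifostine (a radical-scavenging thiol prodrug, 10 mg/kg i.p., 0.5 h before), or phosphate-buffered saline (PBS) i.g. or i.p. Hypothalamus mice had received amifostine i.p. or PBS i.p. Each combination had 1 array at each dose, hybridised with RNA pooled from 3 mice, so the spread between single mice was not measured and a bone marrow arm is 1 pair of arrays.

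In animals a miRNA finds its targets mainly through its seed, bases 2 to 8 from the 5′ end, and the miR-30 family is defined by a shared seed of its 5p strands. A hairpin precursor gives a 5p and a 3p strand, and usually one of them is loaded far more often into the silencing complex. miR-30 is broadly expressed, and it has been reported to restrain autophagy through Beclin 1 in human cancer cells and to repress the antiapoptotic Mcl1 in irradiated mouse and human blood-forming cells.

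The mature sequences below are from RefSeq (GRCm38.p6), which held 6 of the 8 members, with the seed in capitals. They show why the probes of these members can share signal. The first 3 are 5p strands with 1 common seed:
miR-30a-5p: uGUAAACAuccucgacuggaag
miR-30e-5p: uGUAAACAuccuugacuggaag
miR-30c-5p: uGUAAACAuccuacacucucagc
The 3p strands have other seeds, and those of miR-30a and miR-30e are alike:
miR-30a-3p: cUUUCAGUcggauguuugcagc
miR-30e-3p: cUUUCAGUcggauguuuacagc
miR-30c-1-3p: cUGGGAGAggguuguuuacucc

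Counted from 1 at the 5′ end, miR-30a-5p and miR-30e-5p are identical at 21 of 22 positions and differ by C13U. miR-30a-3p and miR-30e-3p differ only by G18A. Between miR-30a-5p and miR-30c-5p, 5 of the first 22 bases differ, all after the seed. How much of one member's RNA was bound by the probes of another was not tested.

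The hairpins lie in separate places of the genome. In GRCm38.p6, Mir30a is at chr1:23272269-23272339 and Mir30c-2 at chr1:23291701-23291784, both on the plus strand with 19361 bases between them and with no overlapping gene in the RefSeq table used. Mir30c-1 (chr4:120769534-120769622) and Mir30e (chr4:120772606-120772697) are on the minus strand with 2983 bases between them, both inside the span of Nfyc, which encodes a subunit of the transcription factor NF-Y. miR-30c-5p has the same sequence at both of its loci, so its level cannot be assigned to either. A scan of the 1017 array miRNAs that had a RefSeq sequence found 1 further miRNA with the seed of miR-30a-5p, miR-384-5p, from a locus on chromosome X:
miR-384-5p: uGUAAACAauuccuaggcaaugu

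The scanner software detected 478 to 582 miRNAs per hypothalamus array and 332 to 403 per bone marrow array. The number of arrays limits the precision. Both doses of an arm always shared a slide. Of the 3 slides, slide 2 carried nilestriol and amifostine marrow, slide 3 carried amifostine hypothalamus, and everything else was on slide 1. Tissue identity followed the labels: all 6 neuronal marker miRNAs were detected on all 4 hypothalamus arrays, and of these only miR-128-3p was detected in bone marrow. Of 4 listed erythroid markers, 3 were found by name on the array (miR-451a, miR-144-3p and miR-144-5p). No entry had the name miR-486-5p, and other names of that miRNA were not searched, so it may have been measured under one. The 3 found were detected on all 10 bone marrow arrays, and miR-451a also on 4 of 4 hypothalamus arrays. miR-34a-5p, a well-known target of p53, served as a check of irradiation. It was higher at 8 Gy in 5 of 5 bone marrow arms, by 2.17 on average. In hypothalamus it was higher at 8 Gy by 0.25, with a confidence interval of -0.67 to 1.18. The hypothalamus arms differed by 0.45 (PBS i.p.) and 0.05 (amifostine). The check therefore held in bone marrow and did not establish a response in hypothalamus.

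Levels below are log2 of the background-subtracted signal after division by the 75th percentile of the array, so 0 is that percentile and a step of 1 is a doubling. Each fit had its own scale: one for the 10 bone marrow arrays, one for the 4 hypothalamus arrays and one for the 8 arrays of matched conditions. Signals of different members are not compared with each other, since probes differ in brightness. The 5p members were detected on every array of both tissues, miR-30e-3p and miR-30c-1-3p as well. miR-30a-3p was detected on 4 of 4 hypothalamus and 4 of 10 bone marrow arrays.

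miR-30a-5p, described in human cells as a repressor of Beclin 1, was higher at 8 Gy in all 5 bone marrow arms. At 8 Gy its level was -0.64 with nilestriol, -0.49 with CBLB502, -0.05 with amifostine, -0.47 with PBS i.g. and -0.02 with PBS i.p. At 0 Gy it was -2.13 with nilestriol, -1.24 with CBLB502, -1.39 with amifostine, -1.04 with PBS i.g. and -0.96 with PBS i.p. The 2 dose groups did not overlap, as for 9.43% of all miRNAs tested, and the nilestriol array was the lowest of each. The difference was 1.49 with nilestriol, 0.75 with CBLB502, 1.34 with amifostine, 0.58 with PBS i.g. and 0.95 with PBS i.p., a mean of 1.02 ± 0.39 (SD, n = 5 arms), or 2.03-fold. The largest difference, with nilestriol, went with the lowest 0 Gy level. The arms of slide 1 averaged 0.76 (n = 3) and those of slide 2 averaged 1.41 (n = 2). These values chose the family and support nothing by themselves. Over all 371 miRNAs tested in bone marrow the median difference was 0.09, and miR-30a-5p was 11th from the top. In bulk marrow, more cells of a type and more RNA per cell cannot be told apart.

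The 3 probes of miR-30a-5p, of 15, 16 and 17 bases, gave mean differences of 1.07, 1.09 and 0.97, each above 0 in 5 of 5 arms.

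**Figure D1:**
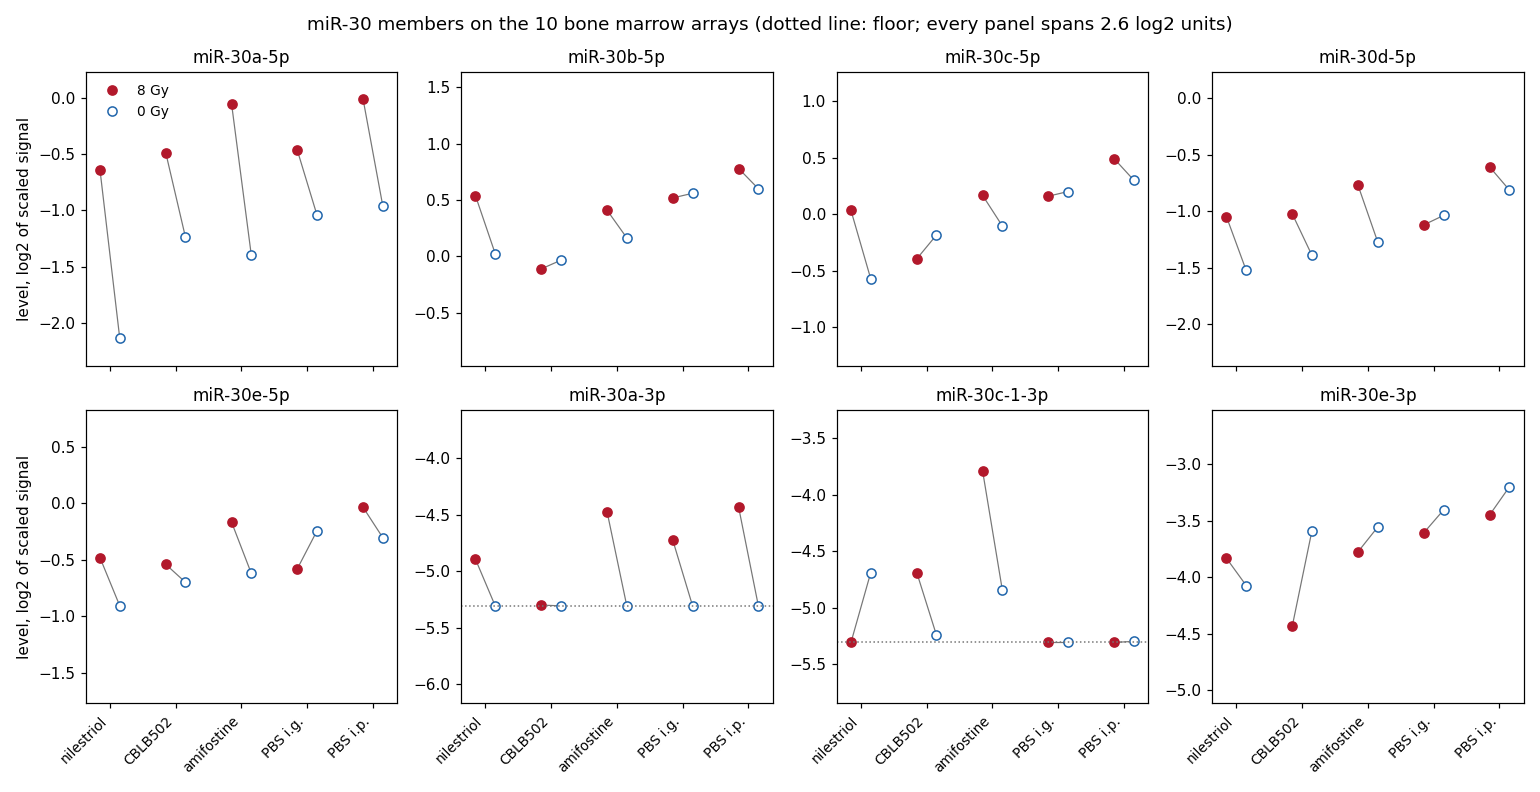
Level (log2 of the scaled signal) of each miR-30 member on the 10 bone marrow arrays, by pretreatment, with the 8 Gy array (filled) left of the 0 Gy array (open) and a line joining the pair; the dotted line is the floor. miR-30a-5p is higher at 8 Gy in every arm, by 0.58 to 1.49, while the lines of the other 5p members are flatter and go both ways.

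The other 5p members moved less. miR-30d-5p, reported to raise insulin gene expression in mouse islet cells, ranged from -1.12 to -0.61 at 8 Gy and from -1.52 to -0.81 at 0 Gy. Its difference averaged 0.29 ± 0.24 (SD, n = 5 arms) and was above 0 in 4 of 5 arms. miR-30e-5p averaged 0.19 ± 0.32 (SD, n = 5 arms), above 0 in 4 of 5 arms and at -0.34 with PBS i.g. miR-30b-5p averaged 0.16 ± 0.24 and miR-30c-5p 0.16 ± 0.31 (SD, n = 5 arms), each above 0 in 3 of 5 arms. miR-30c-5p is known in mouse liver to lower lipoprotein output through Mttp. For these 4 members the levels at 8 and 0 Gy overlapped.

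The 3p strands differed among themselves. miR-30a-3p, from the same hairpin as miR-30a-5p, was detected on 4 of 5 arrays at 8 Gy, all but the CBLB502 array, and on 0 of 5 at 0 Gy. Its unscaled signal was 9.46 (nilestriol), 6.95 (CBLB502), 10.4 (amifostine), 13.1 (PBS i.g.) and 12.6 (PBS i.p.) intensity units at 8 Gy. At 0 Gy it was 3.0 (nilestriol), 5.51 (CBLB502), 5.47 (amifostine), 7.12 (PBS i.g.) and 5.48 (PBS i.p.) intensity units. Because all 0 Gy arrays lay at the floor on the scaled values, no fold is given. At most 30% of its spots were well above background on any bone marrow array.

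miR-30e-3p went the other way: its level at 8 Gy was below that at 0 Gy in 4 of 5 arms, with a mean of -0.26 ± 0.39 (SD, n = 5 arms). The nilestriol arm was the exception at 0.24, and CBLB502 had the lowest difference at -0.85. The CBLB502 array at 8 Gy gave 12.7 intensity units, the lowest of the 10 bone marrow arrays. Between 30% and 87.5% of the miR-30e-3p spots were well above background on a bone marrow array. This limit applies to all bone marrow values of miR-30e-3p below. Without the CBLB502 arm the mean difference of miR-30e-3p was -0.11. miR-30c-1-3p was at the floor on 4 of 10 bone marrow arrays. Its difference ranged from -0.62 with nilestriol to 1.05 with amifostine. Of its 4 probes, the longest carried nearly all of the signal, and the other 3 averaged at most 3.51 intensity units at either dose.

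**Figure D2:**
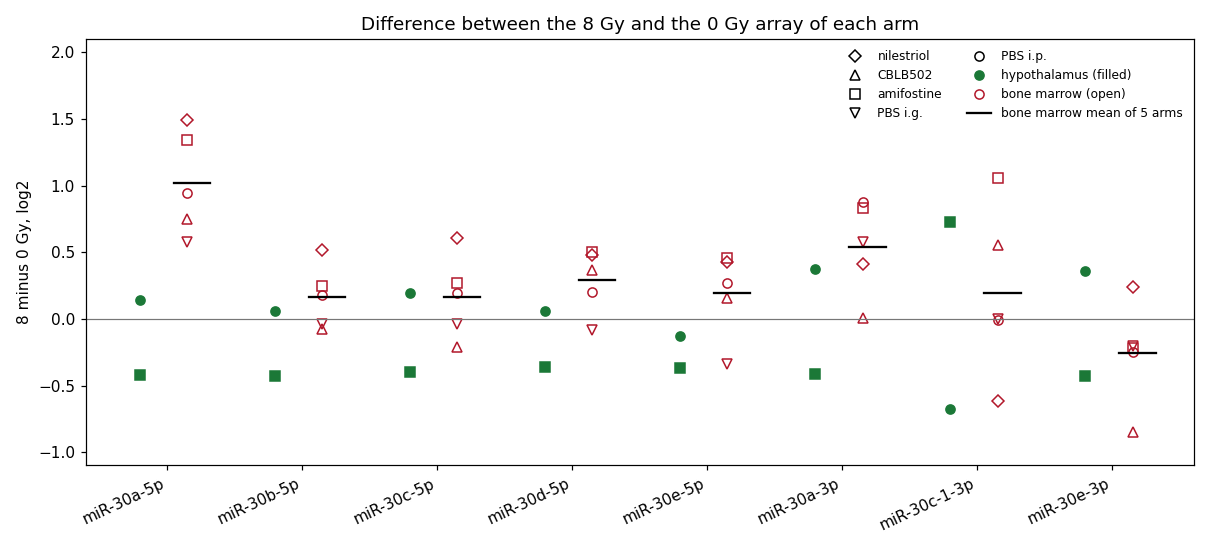
The 8 minus 0 Gy difference (log2) of each member in each pretreatment arm, with hypothalamus arms (filled) left of bone marrow arms (open) and a bar at the bone marrow mean. miR-30a-5p has the highest bone marrow mean at 1.02, and its hypothalamus arms lie at 0.14 (PBS i.p.) and -0.42 (amifostine).

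Ratios of 2 members on the same array do not depend on the scaling of that array. The log2 ratio of miR-30a-5p to miR-30e-5p was higher at 8 Gy in 5 of 5 bone marrow arms, by 0.83 ± 0.19 (SD). Against miR-30d-5p the shift was 0.73 ± 0.23, against miR-30c-5p 0.86 ± 0.18 and against miR-30b-5p 0.86 ± 0.19 (SD, n = 5 arms each), again above 0 in every arm. For all 4 ratios, which share the signal of miR-30a-5p, the 8 Gy and 0 Gy bone marrow arrays did not overlap. For miR-30b-5p the gap was narrow, from 0.41 to 0.44 relative to the 0 Gy mean. How often ratios of other miRNAs do not overlap was not computed. As the 4 ratios contain the values that chose the family, they only describe that the members changed unequally. In hypothalamus the ratio of miR-30a-5p to miR-30e-5p shifted by 0.27 in the PBS i.p. arm and by -0.06 in the amifostine arm, and the other 3 ratios by between -0.06 and 0.08.

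**Figure D3:**
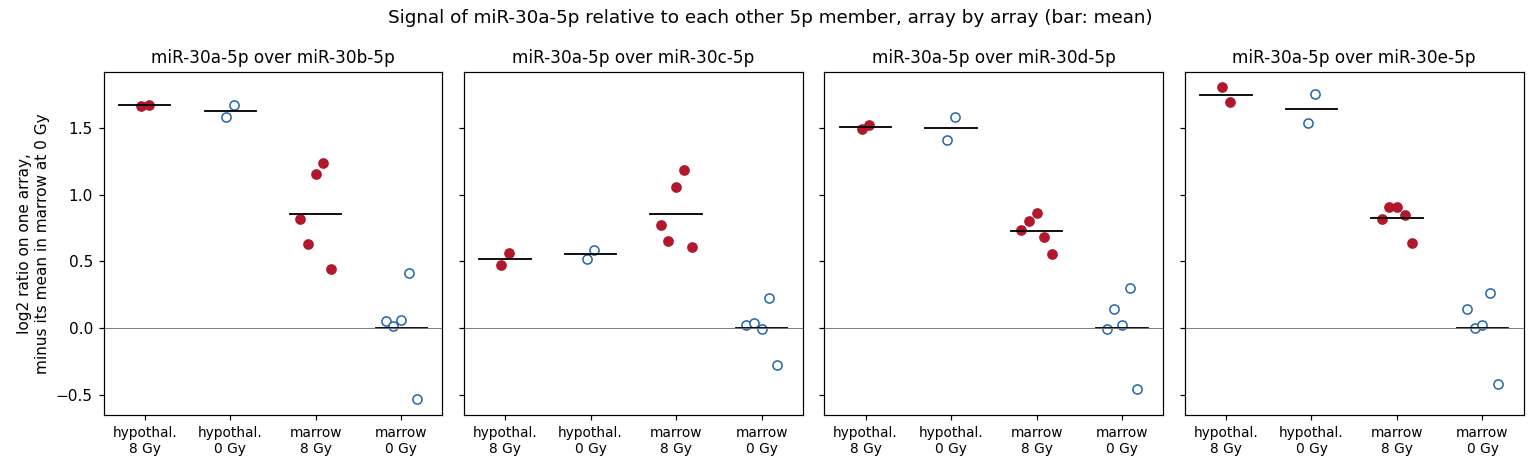
Log2 ratio of miR-30a-5p to each other 5p member on one array, minus the mean of that ratio over the 5 bone marrow arrays at 0 Gy; points are arrays and bars group means. Bone marrow arrays at 8 Gy lie at means of 0.73 to 0.86 above those at 0 Gy, and the 2 hypothalamus groups differ by at most 0.11 in each panel.

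The 5 miRNAs outside the family whose levels were most like those of miR-30a-5p were taken from the 289 others detected on all 10 bone marrow arrays. They were miR-3107-5p (Pearson r = 0.99), miR-451a (0.99), miR-144-5p (0.98), miR-186-5p (0.98) and miR-140-3p (0.97). Both miR-451a and miR-144-5p are erythroid miRNAs from 1 gene cluster active in red cell precursors. With the mean of each dose removed, r was 0.97, 0.97, 0.93, 0.92 and 0.92 in the same order. These arrays share dose, slide and scaling, so the r values are descriptions. miR-451a had a median of 7.76 (range 7.49 to 8.23) at 8 Gy and 6.57 (range 5.49 to 6.89) at 0 Gy. The nilestriol array was the lowest of each dose for miR-451a, as for miR-30a-5p.

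Within the family, over the same 10 arrays, miR-30a-5p had r = 0.85 with miR-30d-5p, 0.77 with miR-30e-5p, 0.66 with miR-30c-5p, 0.52 with miR-30b-5p and 0.06 with miR-30e-3p. After removal of the mean of each dose, r was 0.85, 0.88, 0.82, 0.54 and 0.73 in the same order. Without that removal the closest pair was miR-30d-5p and miR-30e-5p, at 0.95, and miR-30b-5p and miR-30c-5p had 0.92. With it, miR-30c-5p and miR-30e-3p had 0.97.

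The summed erythroid markers, in units of the array's 75th percentile, lay between 182 and 304 on the 8 Gy arrays and between 45.5 and 120 on the 0 Gy arrays. The sum is mostly miR-451a: at 8 Gy its log2 level was at least 7.49, against at most 1.40 for miR-144-3p and 0.35 for miR-144-5p. The mean 8 minus 0 Gy difference was 1.40 for miR-451a, 1.60 for miR-144-3p and 0.97 for miR-144-5p. Myeloid and other blood markers summed to 53.6 to 90.0 at 8 Gy and 36.1 to 70.5 at 0 Gy. Their members went different ways: the mean 8 minus 0 Gy difference was 0.54 for miR-223-3p, -0.03 for miR-142-3p and -0.12 for miR-142-5p. Lymphoid markers summed to 1.13 to 1.73 at 8 Gy and 1.31 to 2.47 at 0 Gy. Stromal and endothelial markers summed to 0.71 to 1.44 at 8 Gy and 0.37 to 1.06 at 0 Gy, and muscle markers to 0.19 to 0.43 at 8 Gy and 0.13 to 0.32 at 0 Gy. The part of these cell types in the levels of miR-30a-5p was not tested.

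In hypothalamus no member passed the test for irradiation, where limma called 0 of 544 miRNAs (0%) and 0 had an unadjusted p below 0.05. miR-30a-5p was at 1.41 with amifostine and 1.54 with PBS i.p. at 8 Gy, and at 1.84 with amifostine and 1.40 with PBS i.p. at 0 Gy. The difference was -0.14 (95% confidence interval -1.24 to 0.96), so increases of up to 0.96 were not excluded. The differences of the 8 members lay between -0.25 (miR-30e-5p) and 0.03 (miR-30c-1-3p), beside a median of -0.08 over all 544 miRNAs. In the amifostine arm 7 of 8 members were below 0, as were 56.1% of all miRNAs, with a median of -0.41 beside -0.20 for all. In the PBS i.p. arm 2 of 8 were below 0, and again 56.1% of all miRNAs, with a median of 0.10 beside -0.08. miR-34a-5p, the check of irradiation, was not called in hypothalamus either. The tissue by irradiation difference was not tested.

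Amifostine in hypothalamus likewise called 0 of 544 miRNAs (0%), with 1 at an unadjusted p below 0.05 and no member called. The differences of the members lay between -0.02 and 0.15. For miR-30a-5p the interval ran from -0.95 to 1.25. Amifostine and PBS arrays of hypothalamus were on different slides, which cannot be told apart from the drug.

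Between the tissues, miR-30a-3p, miR-30a-5p, miR-30c-5p and miR-30e-3p were higher in hypothalamus than in bone marrow of the same pretreatment and dose. The comparison used 4 arrays of each tissue (PBS i.p. and amifostine, at 8 and 0 Gy). limma called 297 of 530 miRNAs (56%) in either direction and 213 (40.2%) higher in hypothalamus, so 4 of 8 members called higher is close to the share of all miRNAs. With the percentile over all miRNAs the calls split into 134 higher and 242 lower, with quantile normalization into 159 and 203 and without scaling into 263 and 43, beside 213 and 84 in the main scale. The members' median difference was 1.14, beside 0.38 for all tested miRNAs.

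miR-30a-5p was at 0.90 and 1.44 with amifostine and 1.19 and 0.74 with PBS (8 and 0 Gy each) in hypothalamus. In bone marrow it was at -0.09 and -1.56 with amifostine and -0.07 and -1.14 with PBS. The tissues did not overlap, as for 57.9% of all miRNAs (42.3% with hypothalamus higher), and the difference was 1.78 ± 0.37 (SE, n = 4 pairs, 3.44-fold, adjusted p = 0.0139 by limma). It averaged 1.13 at 8 Gy and 2.44 at 0 Gy, the marrow levels being higher at 8 Gy. With slide as a term the adjusted p was 0.11, at a difference of 1.57, and within slide 1 it was 0.0317, at 1.42.

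miR-30c-5p averaged 1.81 ± 0.30 in hypothalamus and 0.11 ± 0.29 in bone marrow (SD, n = 4 each), a difference of 1.71 ± 0.21 (SE, adjusted p = 0.0022). miR-30e-3p averaged -2.01 ± 0.35 in hypothalamus and -3.60 ± 0.20 in bone marrow (SD, n = 4 each), a difference of 1.59 ± 0.20 (SE, adjusted p = 0.00224). Both were higher in hypothalamus in 4 of 4 matched conditions. Within slide 1 alone the difference of miR-30e-3p was 1.26, with an adjusted p of 0.0891. miR-30a-3p gave 82.9 to 92.9 intensity units in hypothalamus and 5.47 to 12.6 in bone marrow on these arrays. With 2 of 4 bone marrow arrays detecting it and at most 30% of its spots there well above background, only a bound is given. On the main scale it was at least 4.15-fold higher in hypothalamus (adjusted p = 0.00125 by limma). The measured means there were -2.29 in hypothalamus and -5.05 in bone marrow, a log2 difference of 2.76. Over 18 alternatives the measured difference lay between 0.59 and 4.53, so the bound does not hold for all of them. With the scanner software's totals it did not pass (adjusted p = 0.104).

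The remaining 4 members did not pass, and their sign depended on the scaling described below. miR-30b-5p differed by 0.65 (95% interval 0.07 to 1.24, adjusted p = 0.0599 by limma), miR-30d-5p by 0.68 (0.08 to 1.28, adjusted p = 0.0576), miR-30e-5p by 0.56 (-0.02 to 1.14, adjusted p = 0.0878) and miR-30c-1-3p by 0.69 (-0.09 to 1.46, adjusted p = 0.105). The tissues did not overlap for the first 3, which with the 4 that passed makes 7 of 8 members, beside the 57.9% of all miRNAs given above. Of the strands of the miR-30e hairpin, miR-30e-3p passed and miR-30e-5p did not, and the difference between them was not tested. The probes of miR-30c-1-3p disagreed in sign. Those of 16, 17 and 18 bases differed by -0.29, -0.14 and -0.31, and the longest, of 19 bases, by 0.96. On the hypothalamus arrays 25% of the miR-30c-1-3p spots were well above background.

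The tissue differences moved with the scaling. The median over all 530 miRNAs was 0.38 in the main scale, -0.62 when the percentile was taken over all miRNAs, -0.24 with quantile normalization and 0.86 without scaling. Relative to that median, the measured value of miR-30a-3p, for which bone marrow gives only a limit, lay 1.80 to 2.43 higher over these 4 scalings, miR-30a-5p 0.98 to 1.56, miR-30c-5p 0.91 to 1.49 and miR-30e-3p 0.59 to 1.38. Another background correction, normexp, lowered the tissue difference of miR-30a-3p to 0.59 (0.78 relative to the median) and that of miR-30e-3p to 0.47 (0.67 relative to the median), both still passing with adjusted p of 0.0125 and 0.0482 by limma. Over the 4 scalings, miR-30b-5p, miR-30d-5p and miR-30e-5p lay between -0.25 and 0.47 relative to the median, on both sides of 0. With normexp they lay at 0.81, 0.69 and 0.65 relative to the median. miR-30b-5p (adjusted p = 0.0086 by limma) and miR-30d-5p (0.0405) were then called higher in hypothalamus, and miR-30e-5p (0.0564) was not. miR-30a-3p was called under 4 of the 4 scalings, miR-30a-5p and miR-30c-5p under 3 and miR-30e-3p under 2.

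The cell make-up of the tissues differed widely on the same arrays. Neuronal markers summed to 53.0 to 78.0 in hypothalamus and 0.39 to 0.57 in bone marrow, and oligodendrocyte markers to 2.46 to 3.81 in hypothalamus and 0.098 to 0.23 in bone marrow. Erythroid markers summed to 1.99 to 2.63 in hypothalamus and 85.7 to 297 in bone marrow, and myeloid markers to 0.12 to 0.17 in hypothalamus and 40.3 to 86.5 in bone marrow. Lymphoid markers overlapped, at 1.40 to 2.24 in hypothalamus and 1.52 to 2.18 in bone marrow. Their part in the tissue differences of the miR-30 members was not tested.

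**Figure D4:**
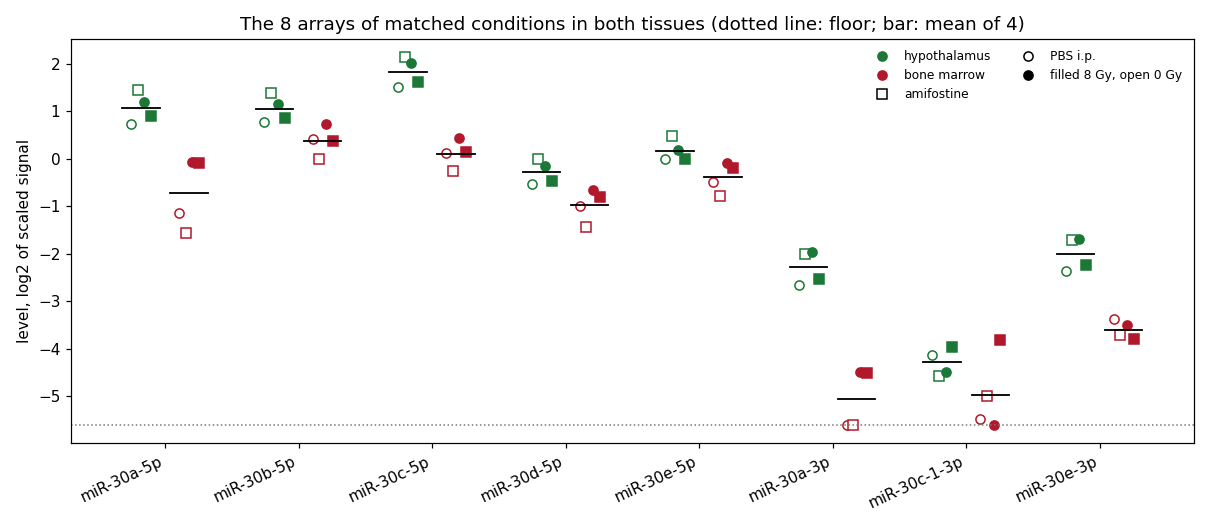
Level (log2 of the scaled signal) of each member on the 8 arrays of conditions present in both tissues, hypothalamus left of bone marrow, filled at 8 Gy and open at 0 Gy, with a bar at the mean of 4; the dotted line is the floor. The tissues do not overlap except for miR-30c-1-3p, as is the case for 57.9% of all miRNAs tested, and heights of different members are not comparable.

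The other products of these loci were mostly dim. miR-30b-3p, miR-30d-3p and miR-30f were detected on 0 of 14 arrays. miR-30c-2-3p, the 3p strand of the second miR-30c hairpin, gave 22.7 to 34.0 intensity units in hypothalamus and 3.57 to 9.73 in bone marrow, where 8 of 10 arrays lay at the floor. miR-384-5p, which shares the seed, was detected on 4 of 4 hypothalamus arrays, with 443 to 509 intensity units, and on 0 of 10 bone marrow arrays. Against the lowest signal well above background, it was at least 21.8-fold higher in hypothalamus on the main scale (adjusted p = 1.09e-05 by limma). Its level there was 0.10 in hypothalamus and at the floor of -5.61 in bone marrow. The measured log2 difference was 4.86 to 6.02 over the 4 scalings and 2.58 with normexp, which is below this bound. Its 3p strand, miR-384-3p, gave 10.1 to 13.7 intensity units in hypothalamus and was not detected in bone marrow.

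For the drugs in bone marrow, both doses were used together, each drug against the same 4 PBS arrays, so the 3 comparisons are not independent. miR-30a-3p was not tested there, leaving 7 members. Nilestriol called 0 of 371 miRNAs (0%) with limma, and 95 had an unadjusted p below 0.05. The miR-30a-5p difference was -0.76 (95% interval -1.28 to -0.24, adjusted p = 0.179 by limma), with levels of -0.64 and -2.13 (8 and 0 Gy) with nilestriol and -1.04 to -0.02 on the PBS arrays. Set beside the PBS i.g. array of the same dose, the difference was -0.17 at 8 Gy and -1.09 at 0 Gy. miR-30c-5p differed by -0.56 and miR-30e-3p by -0.54, both with adjusted p = 0.179 by limma. Without the nilestriol array at 8 Gy, 3 members were called lower, miR-30a-5p (-1.05), miR-30c-5p (-0.83) and miR-30e-3p (-0.85), while 52 of 363 miRNAs (14.3%) were called lower in the same fit. The nilestriol group is then 1 array, assumed to vary like the other groups. The erythroid markers summed to 182 at 8 Gy and 45.5 at 0 Gy with nilestriol, the lowest bone marrow array of each dose, and their part in these values was not tested.

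With CBLB502, miR-30b-5p, reported in human melanoma to favour invasion, was lower. It was at -0.11 at 8 Gy and -0.03 at 0 Gy with CBLB502, against 0.52 to 0.78 on the 4 PBS arrays, without overlap, as for 17.8% of all miRNAs in that direction. The difference was -0.69 ± 0.15 (SE, 1.61-fold lower, adjusted p = 0.0445 by limma). limma called 45 of 371 miRNAs (12.1%), 25 of them (6.74%) lower and 20 higher (70 and 13 with the percentile over all miRNAs, 42 and 6 with quantile normalization), so 1 of 7 members is about the share of all miRNAs, and the median of all was 0.15. miR-30c-5p (-0.58, adjusted p = 0.0697) and miR-30e-3p (-0.60, adjusted p = 0.0869) did not pass, and 6 of 7 members were below 0, as were 42.6% of all miRNAs. Against the PBS i.p. array of the same dose, miR-30b-5p differed by -0.89 at 8 Gy and -0.63 at 0 Gy. Myeloid and other blood markers summed to 53.6 at 8 Gy and 36.1 at 0 Gy with CBLB502, the lowest bone marrow array of each dose, against 83.7 to 90.0 at 8 Gy and 68.7 to 70.5 at 0 Gy with PBS. Erythroid markers summed to 192 at 8 Gy and 95.6 at 0 Gy with CBLB502, against 218 to 276 at 8 Gy and 98.5 to 120 at 0 Gy with PBS. Their part in the level of miR-30b-5p was not tested. CBLB502 and PBS arrays shared slide 1, and within it miR-30c-5p passed as well (-0.56, adjusted p = 0.0428). The call of miR-30b-5p was lost against the PBS i.p. arrays alone (adjusted p = 0.0886) and when any of 6 arrays was left out, with adjusted p from 0.0509 to 0.311. These were the CBLB502 and PBS i.p. arrays of both doses, the PBS i.g. array at 0 Gy and the amifostine array at 8 Gy.

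Amifostine in bone marrow called 0 of 371 miRNAs (0%), with 76 at an unadjusted p below 0.05, and no member. miR-30c-1-3p had levels of -3.79 and -4.84 (8 and 0 Gy) with amifostine and lay at or within 0.01 of the floor on the 4 PBS arrays, so its plotted difference of 0.99 (adjusted p = 0.156 by limma) is set by the floor. miR-30b-5p differed by -0.33 and miR-30a-5p by -0.10. Nilestriol and amifostine arrays were on slide 2 and PBS arrays on slide 1, so these drugs cannot be told apart from slide.

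Nilestriol against amifostine lay within slide 2, although the routes differed. limma called 0 of 371 miRNAs (0%), with 34 at an unadjusted p below 0.05. miR-30a-5p differed by -0.66 (95% interval -1.26 to -0.06, adjusted p = 0.491), and all 7 members lay below 0, as did 56.9% of all miRNAs, with a median of -0.30 beside -0.08 for all miRNAs.

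**Figure D5:**
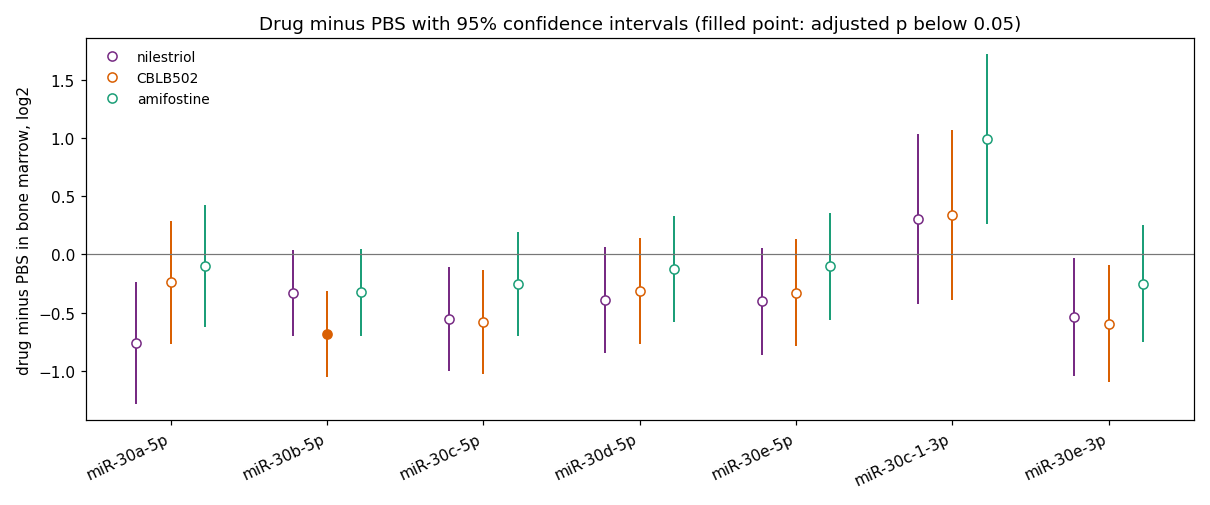
Drug minus PBS difference (log2) of the 7 members tested in bone marrow, with 95% confidence intervals, for nilestriol, CBLB502 and amifostine; the filled point has an adjusted p below 0.05. miR-30b-5p with CBLB502, at -0.69, is the filled point; the 3 drugs share their 4 PBS arrays.

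The PBS i.g. and i.p. arrays gave a view of vehicle route with 1 array at each dose. For the 5p members the i.g. minus i.p. difference lay between -0.54 and -0.26 at 8 Gy and between -0.23 and 0.06 at 0 Gy, with no replicate check.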

How the data were processed

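The members and marker lists were chosen with earlier results of these data known. Per the file headers, the authors extracted spot intensity, with background subtracted, using version 10.7.1.1 of Agilent Feature Extraction. The authors also deposited log2 values, with column medians of -3.32 to -2.77; their scaling is not given in the sources used here, and they served only as an alternative. Outlier-flagged spots (4.42 to 5.27% of 49880 per array) were left out, spots were averaged per probe and then per miRNA, and each array was scaled to its own 75th percentile, taken over the miRNAs that every array in the fit detected (296 for bone marrow, 471 for hypothalamus, 277 for matched arrays). Values were floored at the 5th percentile of detected signals (median over arrays) and logged. miRNAs detected on at least a 0.5 share of arrays were tested with limma 3.58.1 (lmFit, eBayes) in R 4.3.3 with the package data.table (version 1.17.8), two-sided, with Benjamini-Hochberg adjustment at 0.05 over all tested. Tissue was fitted with condition as block, hypothalamus with dose and drug, and bone marrow drugs over 10 arrays with dose as covariate. The fit was tested on simulated data. Named were the 8 members, other products of their loci or seed, miR-34a-5p as a check, and the 5 non-members most correlated with miR-30a-5p. No combination of tissue, arm and dose had a replicate array. The p-values therefore rest on the spread left after the fitted terms. This includes any tissue by condition or drug by dose difference and, for drugs in bone marrow, the PBS route. The spread between pools of the same combination was not measured. The alternatives changed the background correction, scaling, floor, filter, source of values, outlier spots, slide, vehicle and arrays used. Other array miRNAs were tested but are not described.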

Additional observations from a re-analysis of the deposited data

Results flagged for a closer look

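In 43 groups of 4 or 5 values of the members, 2 held a value far from the others, where chance alone gives about 1 in 20 groups. Both were the hypothalamus minus bone marrow difference with amifostine at 0 Gy, which was 1.38 for miR-30b-5p and 1.44 for miR-30d-5p. The other 3 conditions lay between 0.35 and 0.47 for miR-30b-5p and between 0.33 and 0.51 for miR-30d-5p. Without the bone marrow array of that condition the differences were 0.36 (adjusted p = 0.045 by limma) for miR-30b-5p and 0.38 (adjusted p = 0.0326) for miR-30d-5p, so both passed. In the same fit 305 of 502 miRNAs were called, 224 of them higher in hypothalamus.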

How the results depend on the processing

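The count of members called in the tissue comparison was 4, and over its 19 alternatives it lay between 3 and 8. It was 8 without scaling, 6 with normexp, 6 with an offset instead of a floor, 3 with quantile normalization and 3 with the scanner software's totals. Of all 530 miRNAs, 306, 272, 365, 362 and 283 were called, in the same order. Leaving out 1 array gave 4 to 6 members, while between 174 of 389 and 305 of 502 miRNAs were called. With the percentile over all miRNAs the count of members was also 4. Of these, 3 reversed to lower in hypothalamus, miR-30b-5p (-0.76), miR-30d-5p (-0.73) and miR-30e-5p (-0.86). miR-30c-1-3p reversed to -3.07 in the deposited value table. For CBLB502 the count of 1 became 3 with the percentile over all miRNAs, 2 within slide 1 (the same 6 arrays as PBS and CBLB502 alone, also 2), and 0 without scaling, with the scanner software's totals, with the deposited value table and with the PBS i.p. arrays alone; leaving out 1 array gave 0 to 2. For nilestriol the count of 0 became 5 with the percentile over all miRNAs, and 0 to 3 on leaving out 1 array. For amifostine and nilestriol minus amifostine it stayed at 0, and leaving out 1 array gave 0 in both. In hypothalamus both counts stayed at 0 under all 9 alternatives run. The 8 minus 0 Gy difference of miR-30a-5p in bone marrow lay between 0.73 and 1.45 over its 18 alternatives. It was 1.45 within slide 2 rescaled on its own, and 0.90 to 1.13 on leaving out 1 arm. Over all miRNAs, the 45 calls for CBLB502 became 83 with the percentile over all miRNAs, 68 with an offset instead of a floor, 107 within slide 1, 12 with the scanner totals, 4 in the deposited table, and 0 without scaling or with the PBS i.p. arrays alone. From 0, amifostine reached 4 with normexp and 13 with the offset, nilestriol 8 with normexp and 72 with the percentile over all miRNAs, nilestriol minus amifostine 8 with normexp, and amifostine in hypothalamus 9 in the deposited table. The causes were not tested. Leaving out 1 array of the 4-array hypothalamus fits was not run, as it leaves no residual degrees of freedom, and tests without the filter were void because over 1 in 2 miRNAs lay at the floor. The scanner software's total for miR-30c-1-3p was up to 73.0 times the mean of its spots, so that alternative does not measure it. The tissue fit was paired by condition, and the labels carry no replicate numbers for any other pairing.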
